A study of Homo sapiens with 25 samples.

Results

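In control HCT116 cells, trimethylated histone H3 lysine 4 (H3K4me3) and the monomethylated form (H3K4me1) were compared as called peaks. The comparison used 3 of the 25 libraries of the series, 1 of H3K4me3 and 2 of H3K4me1, each with its own peak list. HCT116 is an established line from a human colorectal carcinoma. All control cells carried the empty pSin lentiviral vector and grew under puromycin selection. The FOXD2 cells, to which the same classes are compared, carried the full-length FOXD2 coding sequence in that vector under the same selection, with the same numbers of H3K4me3 and H3K4me1 libraries. Native chromatin digested with MNase was precipitated with the antibodies ab8580 for H3K4me3 and ab8895 for H3K4me1. Nothing in the labels says that replicate libraries came from separate cultures, so the spread between them may be technical. The H3K4me3 list held 24528 peaks, and the H3K4me1 lists 101204 (replicate 1) and 95756 (replicate 2). A place without a peak is a place where none was called, and the read depth behind the lists is unknown.

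H3K4me3 is placed mainly by the SETD1 and KMT2A/KMT2B complexes and is known as the mark of gene starts, above all of those in CpG-rich DNA, to which the complex subunit CXXC1 binds. H3K4me1 is placed mainly by MLL3 and MLL4 (KMT2C and KMT2D), covers enhancers and also lies beside active gene starts. Acetylated H3 lysine 27 (H3K27ac) marks active enhancers and promoters.

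The labelled cell type was checked at marker genes. All 5 epithelial genes examined had an H3K4me3 peak within 1000 bp of a start or gene end. They were the adhesion genes EPCAM and CDH1 and the keratins KRT8, KRT18 and KRT19. The fold enrichment was 166, 130, 6.99, 104 and 133 over the background that the authors' peak caller used. The KRT8 peak did not overlap the start used, and its summit stood 1602 bp downstream. H3K4me3 lay at a start or gene end of 4 of 18 blood cell markers (22.2%), 2 of 16 fibroblast and endothelial markers (12.5%) and 7 of 16 neural markers (43.8%), against 63.0% of all genes. The 20 epithelial junction and keratin genes all had it. The fold and the −log10 q of a peak are the authors' values and are used here only to describe and rank peaks within a list.

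Each of 19974 protein-coding genes was placed in a class by the peaks within 1000 bp of its start. The starts of 15812 genes came from the RefSeq promoter table, and for the other 4162 both gene ends were used. Such a gene has 2 positions, 1 of them its 3′ end, so its class can come from either end. The 15812 genes had 22132 listed starts. For a gene with several positions, the one whose H3K4me3 peak had the highest −log10 q was used. Where listed starts shared that peak, the most upstream was taken, which can lie far from the summit. Without H3K4me3, the position with H3K4me1 in more lists was used. H3K4me3 "alone" means an H3K4me3 peak and no H3K4me1 peak of either list within that window. H3K4me1 "near but not over" means H3K4me1 in the window in both lists and on the start base in neither. H3K4me1 "over" means a peak on the start base in both lists. The promoter sequences below run from 250 bases before to 50 after the start, are RefSeq's for GRCh38.p14, and show CpG dinucleotides in capitals. They are shown because the classes differed in CpG content.

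The strongest listed starts with H3K4me3 alone, by −log10 q, were those of DDX5, an RNA helicase (chr17:64506589-64506888, minus strand), and SOD2, the mitochondrial superoxide dismutase (chr6:159727335-159727634, minus strand).
DDX5: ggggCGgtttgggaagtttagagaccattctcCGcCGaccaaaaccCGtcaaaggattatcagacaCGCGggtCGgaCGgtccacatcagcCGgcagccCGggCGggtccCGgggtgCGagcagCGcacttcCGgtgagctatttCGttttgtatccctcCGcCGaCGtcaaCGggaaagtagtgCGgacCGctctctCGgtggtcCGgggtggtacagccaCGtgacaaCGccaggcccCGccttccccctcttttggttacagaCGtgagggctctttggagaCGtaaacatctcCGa
SOD2: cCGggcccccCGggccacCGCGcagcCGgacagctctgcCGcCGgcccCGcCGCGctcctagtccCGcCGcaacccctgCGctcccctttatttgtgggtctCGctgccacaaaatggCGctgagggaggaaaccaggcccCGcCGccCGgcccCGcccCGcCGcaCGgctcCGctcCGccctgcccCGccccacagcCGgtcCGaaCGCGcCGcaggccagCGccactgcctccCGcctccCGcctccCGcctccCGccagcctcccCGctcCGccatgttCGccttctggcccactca

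With H3K4me1 near but not over the start, the strongest were SMC3, a cohesin subunit (chr10:110567445-110567744, plus strand), and ABRAXAS2, a scaffold of a deubiquitinase complex (chr10:124801569-124801868, plus strand).
SMC3: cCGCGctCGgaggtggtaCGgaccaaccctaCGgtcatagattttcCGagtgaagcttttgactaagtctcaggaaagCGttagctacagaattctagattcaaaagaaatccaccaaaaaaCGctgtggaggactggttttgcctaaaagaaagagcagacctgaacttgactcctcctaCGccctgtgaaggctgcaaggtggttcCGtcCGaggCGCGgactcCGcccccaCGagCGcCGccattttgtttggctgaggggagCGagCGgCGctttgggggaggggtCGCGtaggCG
ABRAXAS2: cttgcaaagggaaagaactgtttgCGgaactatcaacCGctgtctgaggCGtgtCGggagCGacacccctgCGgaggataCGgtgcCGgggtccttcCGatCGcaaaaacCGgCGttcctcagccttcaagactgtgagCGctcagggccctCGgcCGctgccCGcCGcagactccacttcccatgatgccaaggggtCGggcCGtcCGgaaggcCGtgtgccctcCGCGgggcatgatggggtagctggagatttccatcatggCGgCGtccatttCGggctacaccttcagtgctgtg

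With H3K4me1 over the start, they were MTMR4, a lipid phosphatase (chr17:58514589-58514888, minus strand), and NT5C, a nucleotidase (chr17:75131693-75131992, minus strand).
MTMR4: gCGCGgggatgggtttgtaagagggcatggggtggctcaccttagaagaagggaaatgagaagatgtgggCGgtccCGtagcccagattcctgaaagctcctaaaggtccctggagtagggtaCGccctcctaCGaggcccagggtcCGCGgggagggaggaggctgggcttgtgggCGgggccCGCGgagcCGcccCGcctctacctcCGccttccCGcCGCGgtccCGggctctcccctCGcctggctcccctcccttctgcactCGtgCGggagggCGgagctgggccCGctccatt
NT5C: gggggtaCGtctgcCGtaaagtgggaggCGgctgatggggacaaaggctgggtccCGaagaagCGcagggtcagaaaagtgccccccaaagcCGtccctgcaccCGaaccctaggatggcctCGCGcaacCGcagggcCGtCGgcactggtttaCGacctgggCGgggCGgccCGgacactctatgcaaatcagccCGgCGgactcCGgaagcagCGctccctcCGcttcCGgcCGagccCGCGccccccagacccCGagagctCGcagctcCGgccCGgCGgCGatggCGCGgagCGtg

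Among starts with H3K4me1 in both lists and no H3K4me3, C17orf99 (chr17:78146135-78146434, plus strand) and PRX, which encodes the myelin protein periaxin (chr19:40414740-40415039, minus strand), carried the strongest H3K4me1 of those with a listed sequence. Strength here is the lower −log10 q of both lists.
C17orf99: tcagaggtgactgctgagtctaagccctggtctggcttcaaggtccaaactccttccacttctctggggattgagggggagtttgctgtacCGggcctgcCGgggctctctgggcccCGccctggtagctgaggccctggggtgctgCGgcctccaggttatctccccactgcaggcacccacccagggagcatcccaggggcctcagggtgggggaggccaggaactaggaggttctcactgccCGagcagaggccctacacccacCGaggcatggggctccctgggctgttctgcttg
PRX: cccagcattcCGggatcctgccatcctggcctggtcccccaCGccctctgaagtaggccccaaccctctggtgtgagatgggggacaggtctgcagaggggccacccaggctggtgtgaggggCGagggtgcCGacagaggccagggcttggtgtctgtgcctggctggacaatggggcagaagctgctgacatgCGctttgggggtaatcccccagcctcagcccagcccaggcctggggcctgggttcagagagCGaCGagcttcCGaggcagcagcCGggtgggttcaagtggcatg

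These sequences held 30 CpG in DDX5 and 38 in SOD2, 23 in SMC3 and 26 in ABRAXAS2, 23 in MTMR4 and 34 in NT5C, and 6 in C17orf99 and 9 in PRX. The CpG ratio, which is the number of CpG over that expected from the C and G content, was 1.06 in DDX5 and 0.955 in SOD2. It was 0.188 in C17orf99 and 0.273 in PRX. The starts without H3K4me3 thus had fewer CpG than every one of the 6 with it.

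H3K4me3 peaks were wider and closer to genes than H3K4me1 peaks. The median width was 1295.5 bp for H3K4me3, against 959 and 864 bp in the H3K4me1 lists (912 ± 67.2 bp, SD, n = 2). Of the peaks, 49.7% of H3K4me3 lay within 1000 bp of a gene start, against 21.0% and 21.3% of H3K4me1 (21.1 ± 0.207%, SD, n = 2). Peaks over 2000 bp from both ends of every annotated gene, called distal here, made up 38.6% of H3K4me3, against 65.1% and 64.0% of H3K4me1. In each of these measures the H3K4me3 library lay outside both H3K4me1 libraries, and the two-sided exact permutation p was 0.333, the smallest that 1 library against 2 allows. The H3K4me1 lists overlapped each other at 79.1% of the peaks of replicate 1 and 89.9% of those of replicate 2. Of H3K4me1 peaks, 29.5% of replicate 1 and 32.1% of replicate 2 overlapped an H3K4me3 peak by at least 1 bp.

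Nearly all H3K4me3 peaks had H3K4me1 over or beside them, in 2 main arrangements. The H3K4me3 summit lay inside an H3K4me1 peak of both lists at 13571 of 24528 peaks (55.3%, 95% Wilson interval 54.7 to 55.9%). These covered peaks were narrow and weak, with a median width of 678 bp and a median fold of 11.2, and 60.8% were distal. At 6983 peaks (28.5%) the summit was free of H3K4me1 and flanked by it on both sides, within the H3K4me3 peak or 1000 bp beyond its edges. Those were wide and strong, with medians of 2215 bp and 117-fold, and 93.3% lay at gene starts. H3K4me1 lay on 1 side only at 252 peaks, and was absent from the peak and its 1000 bp flanks at 197 (0.803%, 0.699 to 0.923%). At 3525 peaks (14.4%) the 2 H3K4me1 lists gave different classes. The intervals cover the counting of peaks only.

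Taken list by list, 16448 summits were covered by replicate 1 and 13702 by replicate 2, and 7465 and 9321 were flanked on both sides. H3K4me1 lay on 1 side only at 403 and 1001. The class without H3K4me1 depended on the library: it held 212 peaks by replicate 1 and 504 by replicate 2. The largest exchange was of 2310 peaks covered in replicate 1 and flanked on both sides in replicate 2. H3K4me1 covered 73.4% of all H3K4me3 bases in replicate 1 and 62.3% in replicate 2. Whole H3K4me3 peaks lay inside H3K4me1 at 53.7% and 44.1%, and 1.51% and 3.32% had no base of H3K4me1.

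The stronger the H3K4me3 peak, the less often H3K4me1 covered its summit. All H3K4me3 peaks were ranked by fold and put into 10 bins of equal size, bin 1 being the weakest. Among distal peaks the covered share was 97.4% (replicate 1) and 96.2% (replicate 2) in bin 1, 91.6% and 85.0% in bin 5, and 27.9% and 8.16% in bin 10. Among peaks at gene starts it was 87.8% and 78.8% in bin 1, 78.6% and 63.0% in bin 5, and 21.7% and 4.36% in bin 10. The decline was thus present in both positions and with either list. From bin 4 on, each bin had a lower share than the bin before it in all 4 series, and bins 1 to 3 did not follow that order. Width moved with fold, since bin 1 had a median width of 337 bp, and the part of width in the decline was not tested.

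**Figure D1:**
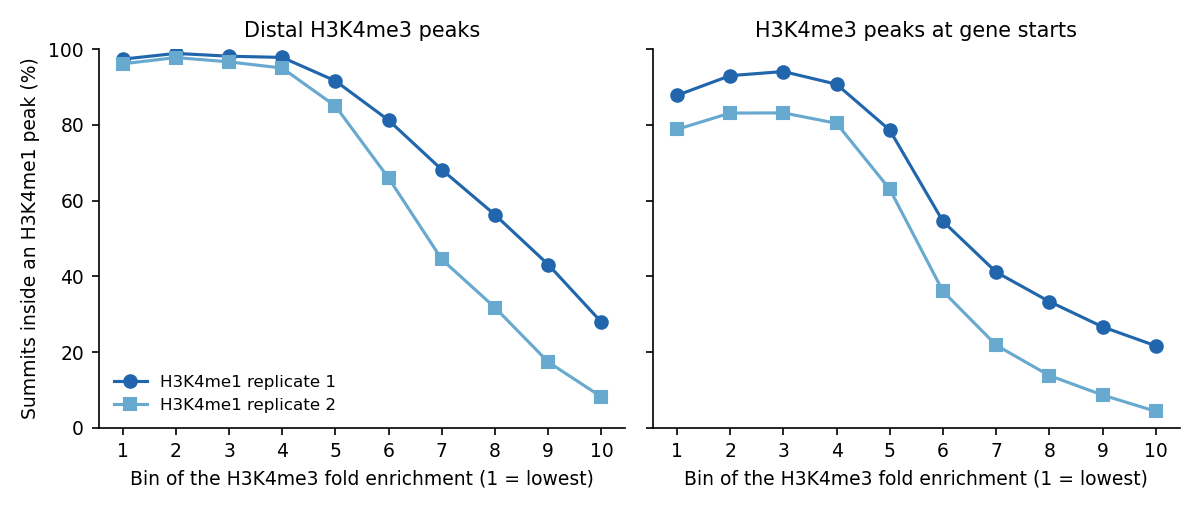
Share of H3K4me3 summits inside an H3K4me1 peak (y axis, %) by bin of the H3K4me3 fold enrichment (x axis, 1 is the lowest), for distal peaks (left) and peaks at gene starts (right). Circles and squares are the 2 H3K4me1 lists; the share is 97.4% and 96.2% in the lowest distal bin and 27.9% and 8.16% in the highest.

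The summits of the marks seldom coincided. A summit is the base where a peak is highest, taken as the peak's start plus the offset in the deposited list. Over all H3K4me3 peaks the median distance was 615.5 bp to replicate 1 and 608 bp to replicate 2. For distal peaks it was 401 and 398 bp, and for peaks at gene starts 745 and 743 bp. The 2 lists gave nearly the same medians, and distal peaks had the shorter distance with both. Between the H3K4me1 lists themselves, summits of replicate 1 lay a median of 176 bp from the nearest of replicate 2.

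Summits within 73 bp of each other, about the reach of 1 nucleosome to either side, were found at 16.3% of distal H3K4me3 peaks with either list. At gene starts the share was 3.00% (replicate 1) and 2.57% (replicate 2). Of the H3K4me1 summits themselves, 33.1% of replicate 1 and 35.0% of replicate 2 lay that close to one of the other replicate. By class, the median distance was 373 and 362 bp for covered peaks and 825 and 834 bp for those flanked on both sides. Peaks without H3K4me1 had medians of 22763 and 26317 bp. Within 1000 bp lay 77.1% and 77.3% of all H3K4me3 summits.

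**Figure D2:**
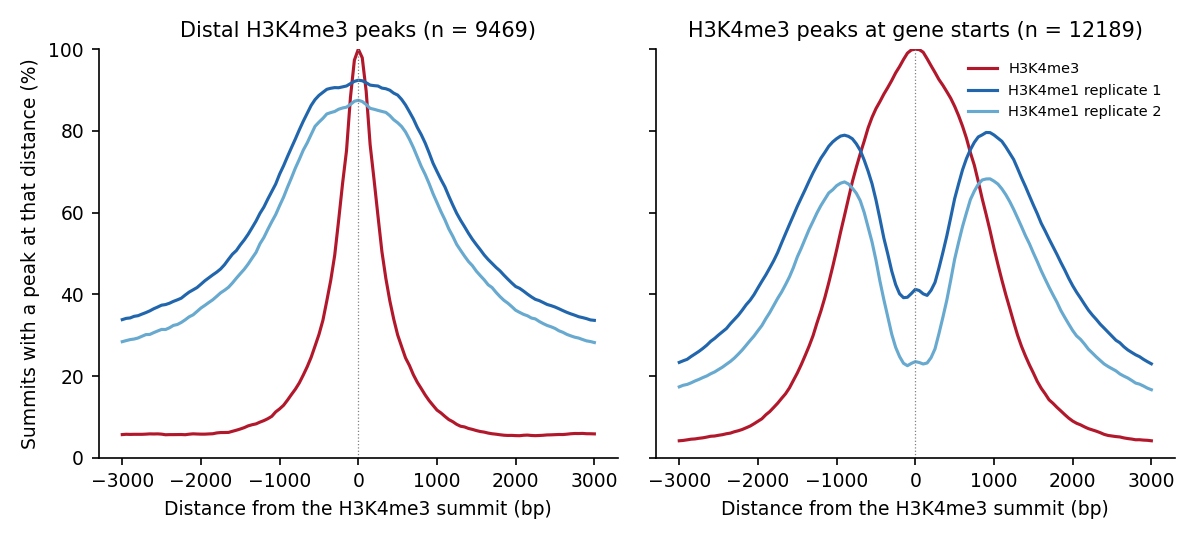
Share of H3K4me3 summits (y axis, %) with an H3K4me3 peak or an H3K4me1 peak of replicate 1 or 2 at each distance from the summit (x axis, bp), for 9469 distal peaks (left) and 12189 peaks at gene starts (right). H3K4me1 is highest over the distal summits, and forms a shoulder on either side of a dip at gene starts; 835 peaks count in both panels.

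At gene starts the H3K4me3 summit most often lay just inside the gene, in a gap between upstream and downstream H3K4me1. Over the 10318 genes with H3K4me3 and a listed start, the summit of the strongest H3K4me3 peak stood a median of 181 bp downstream of the start (interquartile range 97.0 to 361 bp). It was downstream at 80.7% of them, where the most upstream start was taken among those sharing a peak. H3K4me3 covered most starts at 200 bp downstream (96.2%). H3K4me1 covered fewest at the start base itself, with 24.7% by replicate 1 and 14.3% by replicate 2. Its upstream maximum stood 750 bp (78.5%) and 650 bp (66.0%) before the start, and its downstream maximum 1200 bp (81.7%) and 1250 bp (70.8%) after it. The H3K4me1 shoulder was therefore farther out on the gene side than on the upstream side in both lists. The nearest H3K4me1 summits gave the same order, at medians of 864 and 833.5 bp upstream and 1269 and 1280 bp downstream.

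**Figure D3:**
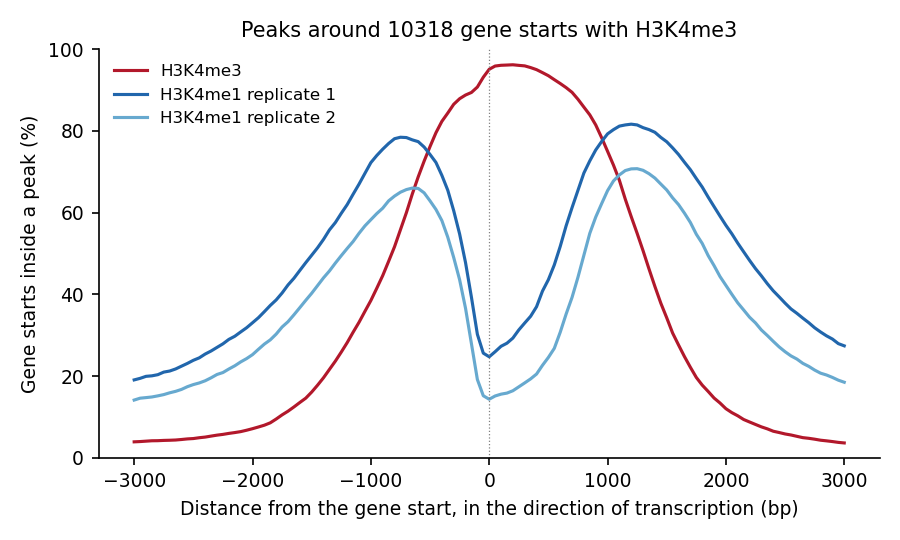
Share of 10318 listed gene starts with H3K4me3 (y axis, %) that lie inside a peak of H3K4me3 or of either H3K4me1 list, by distance from the start in the direction of transcription (x axis, bp). H3K4me3 reaches 96.2% at 200 bp downstream, and H3K4me1 is lowest at the start, with 24.7% and 14.3%.

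The gap in H3K4me1 around the H3K4me3 summit, measured at peaks flanked on both sides, had a median of 983 bp in replicate 1 and 1126 bp in replicate 2. It was narrower than the H3K4me3 peak at 96.5% and 95.9% of them. Both edges of the H3K4me3 peak lay inside H3K4me1 at 84.2% and 77.7%. At the 6983 peaks flanked in both lists, the 2 gap widths differed by a median of 200 bp. Most H3K4me3 peaks of this flanked class thus ran out into the H3K4me1 on both sides. Peaks of the other classes were not measured in this way.

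Of the 19974 genes, 12589 had H3K4me3 within 1000 bp of a start (63.0%). The largest class was H3K4me3 with H3K4me1 near but not over the start, with 8610 genes (43.1%). H3K4me1 lay over the start at 1940 genes (9.71%), the lists differed at 1892 (9.47%), and H3K4me3 stood alone at 147 (0.736%). H3K4me1 in both lists without H3K4me3 was found at 874 genes (4.38%), in 1 list without H3K4me3 at 371 (1.86%), and 6140 genes (30.7%) had neither mark. The classes depended on the library: by itself, replicate 1 lay over the start at 3380 genes and replicate 2 at 2023, near but not over it at 9047 and 10014, and left H3K4me3 alone at 162 and 552. The class alone also turned on the window, with 1653 genes within 500 bp and 63 within 2000 bp of the start. With listed starts only it held 114 genes.

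Promoters with H3K4me3 alone were put into 2 kinds by H3K4me1 in the peak or its flanks. The flanks run 1000 bp from the peak's edges, and the window 1000 bp from the start. A wide peak can therefore reach H3K4me1 beyond the window, so width separates the kinds partly by construction. The 147 genes shared 133 H3K4me3 peaks. At 62 genes the whole peak was free of H3K4me1 and its flanks too, and these peaks were narrow (median 577 bp) with a median fold of 31.0. At the other genes H3K4me1 began beyond 1000 bp of the start, and the H3K4me3 peaks were wide (median 3063 bp) with a median fold of 108. Of these wide peaks, counted by gene, 50 had H3K4me1 on both sides, 20 on 1 side, and 15 had classes that differed between the lists.

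The genes named by the highest −log10 q belonged to the wide kind. The peak at DDX5 was 3513 bp wide with a fold of 98.8, and the nearest H3K4me1 began 1139 bp (replicate 1) and 1063 bp (replicate 2) from the start, just past the window. At SOD2 the peak was 2211 bp wide with a fold of 135, and H3K4me1 began 1108 and 1182 bp away. KDM3B, a histone H3K9 demethylase, had a 2052 bp peak with a fold of 169 and H3K4me1 at 1128 and 1274 bp. AP3S1, of the AP-3 vesicle adaptor, and ATG12, an autophagy factor, face away from each other under 1 shared peak of 3384 bp and 177-fold. GSK3B, a kinase that acts on beta-catenin, had a 4084 bp peak with a fold of 171 and H3K4me1 at 1172 and 1211 bp. All 6 had H3K27ac in both libraries.

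With H3K4me1 near but not over the start, the highest were SMC3 (fold 186, H3K4me1 86 bp and 79 bp from the start) and ABRAXAS2 (fold 190, at 186 and 135 bp). Next came MRPL12, a mitochondrial ribosomal protein (fold 211, at 645 and 983 bp), and CENPX, a centromere protein, and LRRC45, whose starts were both within 1000 bp of 1 peak (fold 197). ZNF623, a zinc finger gene, had a fold of 187. The H3K4me1 gap at SMC3 was 906 and 1013 bp and that at ABRAXAS2 872 and 867 bp, close to each other in the 2 lists.

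With H3K4me1 over the start or gene end used, the highest were the chromosome 8 genes GPT, an alanine aminotransferase, and RECQL4, a DNA helicase. They share a peak of 3879 bp and 168-fold, which lies between the gene ends used and overlaps neither. GFUS, which makes GDP-fucose, followed with a fold of 178, then MTMR4 with 175, PTK2, the focal adhesion kinase, with 196, and ERICH5 with 171. Of these 6, only MTMR4 has a listed start. The others were placed by both gene ends, and whether H3K4me1 lay over the 5′ or the 3′ end was not determined. Over all genes, H3K4me1 lay over the start at 1410 of 15812 genes with a listed start (8.92%) and over an end at 530 of the 4162 placed by both ends (12.7%). The MTMR4 peak (chr17:58513333-58515085) was wholly inside H3K4me1 in both lists, and its start lies within the gene's span. H3K4me1 without H3K4me3 was ranked by the lower −log10 q of the 2 lists. By that rank it was strongest at C17orf99, with a fold of 37.2 in replicate 1 and 25.8 in replicate 2. GSDMC, a gasdermin, followed with 22.9 and 25.8. VXN had 19.8 and 26.9, so by fold in replicate 2 it stood above both, and PRX had 18.3 and 23.5.

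Ranking by q favoured some chromosomes. Of the 100 peaks with the highest −log10 q, 95 lay on chromosomes 8, 10, 16 and 17, which hold 19.5% of all H3K4me3 peaks. These chromosomes were chosen after the ranks were seen. All 31 on chromosome 8 lay beyond 66.6 Mb and all 20 on chromosome 10 beyond 101 Mb. Of the 100 with the highest fold, 45 lay on these chromosomes. At gene starts there, the median fold was 111 against 103 elsewhere, and the median −log10 q 562 against 483. Parts of these chromosomes are known to be gained in HCT116; the part of copy number in these ranks was not tested.

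CpG content separated the classes. It was measured in the 300-base promoter sequence of the listed start used for each gene. The median CpG ratio was 0.875 with H3K4me3 alone and 0.882 with H3K4me1 near but not over the start. It was 0.635 with H3K4me1 over the start, 0.248 with H3K4me1 and no H3K4me3, 0.336 with neither mark, and 0.767 over all listed genes. A ratio of 0.6 or more was found at 91.2% of starts with H3K4me3 alone (84.6 to 95.2%), 94.3% with H3K4me1 near (93.7 to 94.8%) and 54.2% with H3K4me1 over the start (51.6 to 56.8%). Without H3K4me3 it was 11.8% with H3K4me1 (9.44 to 14.7%) and 30.1% with neither mark (28.9 to 31.5%), against 66.6% of all. The alone and near classes overlapped in their intervals, and both lay above the class with H3K4me1 over the start.

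**Figure D4:**
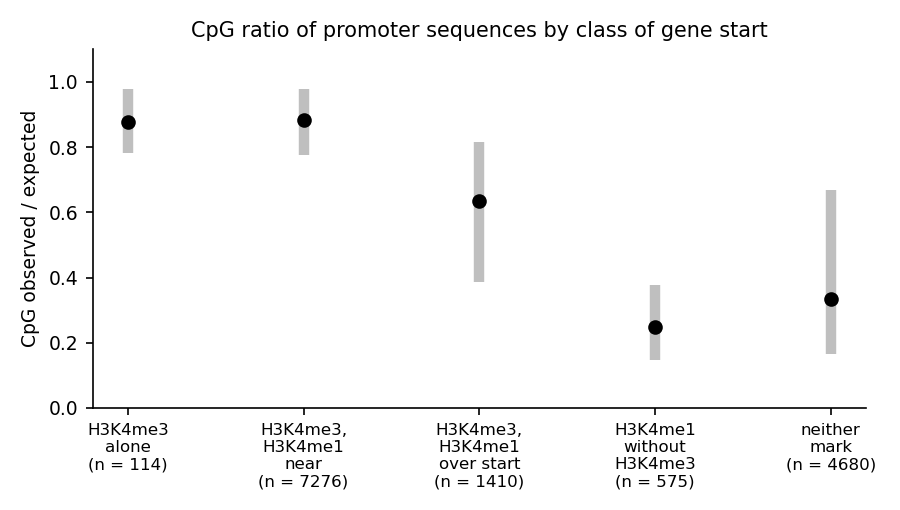
CpG ratio (y axis, observed over expected) of the 300-base promoter sequences in 5 classes of gene start (x axis, with the number of sequences). Points are medians and grey bars interquartile ranges; the medians are 0.875, 0.882, 0.635, 0.248 and 0.336 from left to right.

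Short motifs were searched on both strands of the same sequences. The GC box core GGGCGG was found at 78.1% of starts with H3K4me3 alone, 76.9% with H3K4me1 near, 57.2% with H3K4me1 over the start, 28.7% with H3K4me1 and no H3K4me3 and 59.1% of all. Its letters contain CG, so its share moves with CpG content. The TATA-box form TATAAA was found at 5.26%, 4.32%, 8.51% and 14.4% in the same order, at 19.1% with neither mark, and at 9.70% of all. Neither motif contains the other. A match describes the letters only.

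H3K27ac and MLL4 differed between the classes as well. H3K27ac lay within 1000 bp of the start at 59.2% (replicate 1) and 65.3% (replicate 2) of genes with H3K4me3 alone, 95.3% and 94.9% with H3K4me1 near, and 89.4% and 85.8% with H3K4me1 over the start. H3K4me1 without H3K4me3 had it at 67.8% and 55.3%, and neither mark at 23.3% and 11.9%. MLL4 lay at 21.1% and 19.0% with H3K4me3 alone, 39.9% and 26.7% with H3K4me1 near, and 42.0% and 36.2% with H3K4me1 over the start. Without H3K4me3 it was rare, at 5.15% and 3.66% with H3K4me1 and at 0.472% and 0% with neither mark. The MLL4 libraries came from crosslinked, sonicated chromatin, unlike the histone libraries. For H3K4me3 alone, both libraries of both readouts were below both libraries of the other H3K4me3 classes. With 2 libraries a readout no test between classes was made.

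**Figure D5:**
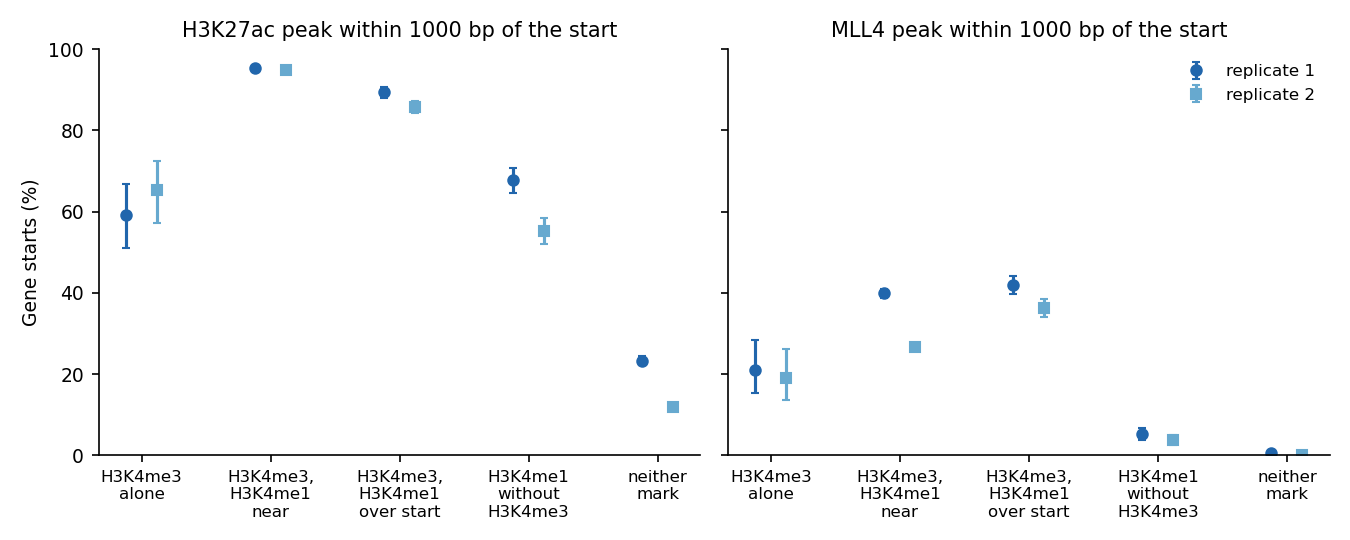
Share of gene starts (y axis, %) with an H3K27ac peak (left) or an MLL4 peak (right) within 1000 bp, in 5 classes of gene start (x axis). Circles and squares are replicate libraries 1 and 2, and bars are 95% Wilson intervals that cover counting only; H3K27ac is at 59.2% and 65.3% with H3K4me3 alone and at 95.3% and 94.9% with H3K4me1 near.

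Both readouts were also counted in each kind of lone H3K4me3. Among the 62 genes whose peak and flanks were free of H3K4me1, H3K27ac lay within 1000 bp of the start at 22.6% (13.96 to 34.4%, replicate 1) and 33.9% (23.3 to 46.3%, replicate 2). Among the other 85 it lay there at 85.9% (76.9 to 91.7%) and 88.2% (79.7 to 93.5%). MLL4 lay at 1 and 0 of the 62 genes and at 30 and 28 of the 85. The intervals cover counting only, and the peaks of the 62 genes were the narrower and weaker ones.

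Counted by peak, H3K4me3 peaks at gene starts that were free of H3K4me1 in themselves and their flanks numbered 67 by replicate 1, 208 by replicate 2 and 63 by both. The 63 overlapped H3K27ac at 23.8% and 26.98% and MLL4 at 1.59% and 0%. Those free of replicate 1 alone overlapped H3K27ac at 23.9% and 25.4%, and those free of replicate 2 alone at 36.1% and 28.8%. The 6514 flanked on both sides in both lists overlapped H3K27ac at 96.7% and 96.6% and MLL4 at 43.5% and 30.5%. The lone peaks were also narrower (median 532 bp, and 2235 bp for the flanked ones), and the part of width in these shares was not tested. An H3K4me3 peak of the FOXD2 cells overlapped 74.6% of the lone peaks and 100% of the flanked ones.

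The gene lists are described by the classes of their members, with no test between lists or against all genes. In the whole set, 12589 genes (63.0%) had H3K4me3. Of these, 68.4% had H3K4me1 near but not over the start, 15.4% had it over the start, 15.03% differed between lists and 1.17% had H3K4me3 alone. Among 20 cell cycle genes, all had H3K4me3 and 19 had H3K4me1 near but not over the start, against 68.4% of all genes with H3K4me3. CDK1, the mitotic kinase, had a peak of 1176 bp and 174-fold with H3K4me1 170 and 264 bp from its start. CCNA2, cyclin A2, had 1836 bp and 165-fold with H3K4me1 at 254 and 260 bp. PCNA, the replication clamp, and AURKB, a mitotic kinase, had folds of 139 and 151. All 20 ribosomal protein genes had H3K4me3, 16 of them (80.0%) with H3K4me1 near, beside 68.4% of all genes with H3K4me3. The RPL13 peak was 7749 bp wide, and RPS19 had a fold of 142, while RPL8 and RPS2 had H3K4me1 over a gene end. The p53 targets also numbered 20 of 20 with H3K4me3 and 16 near, the same shares as the ribosomal genes. Among them were BTG2, an antiproliferative gene (fold 157), PMAIP1, which encodes the cell death protein NOXA (154), GADD45A (139) and RRM2B, a ribonucleotide reductase subunit (135).

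Epithelial junction and keratin genes had H3K4me1 over the start at 9 of 20, near at 5 and differing between lists at 6, against 15.4% of all genes with H3K4me3 that had H3K4me1 over the start. Of the 20, 10 were placed by both gene ends, where the class can come from the 3′ end. These include 4 of the 9, namely GRHL2, PKP3, KRT7 and KRT19. Of the 10 with a listed start, all with H3K4me3, 5 had H3K4me1 over it, namely CLDN1, CLDN3, CLDN4, TJP3 and KRT8. Over all genes, that held for 1410 of the 10318 listed starts with H3K4me3. GRHL2, a regulator of epithelial genes, had a peak of 3216 bp and 129-fold that H3K4me1 covered by 100% in replicate 1 and 91.8% in replicate 2. PKP3, a desmosome plakophilin, had 116-fold with 81.7% and 77.2% covered, and ESRP1, an epithelial splicing regulator, 158-fold with 100% and 64.7%. The weak KRT8 peak (fold 6.99) lay wholly inside H3K4me1 of 19.0-fold and 20.2-fold. It did not overlap the start used, and its summit stood 1602 bp downstream of that start.

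Wnt targets had H3K4me3 at 18 of 20, beside 63.0% of all genes. Of the 18, 10 were near (55.6%), 4 over (22.2%) and 4 differing, beside 68.4% near and 15.4% over among all genes with H3K4me3. Of the list, 9 genes were placed by both ends. MYC had a 6847 bp peak of 137-fold with H3K4me1 of 25.5-fold and 26.3-fold over a gene end, and SOX9, AXIN2 and ZNRF3 had folds of 169, 126 and 129. Immediate-early, AP-1 and YAP targets had it at 18 of 20, with 12 near (66.7%), 2 over and 4 differing, so the share near was close to the 68.4% of all. DUSP1, a phosphatase, had 145-fold, AMOTL2 135, AXL 142 and LATS2 138. AMOTL2 and AXL had low CpG ratios at the starts used, of 0.0458 and 0.216. H3K4me1 lay over the AMOTL2 start in both lists and over the AXL start in replicate 1. The H3K4me3 summit stood 1720 bp downstream of the AMOTL2 start, so its CpG ratio is not that of the DNA at the summit. At AXL the summit stood 118 bp downstream.

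Interferon and inflammatory genes had H3K4me3 at 15 of 20 (beside 63.0% of all genes), with 7 near (46.7%), 6 over (40.0%) and 2 differing. Of the 6, 5 have a listed start. The shares over all genes with H3K4me3 were 68.4% near and 15.4% over. Among the members were RELB (160-fold), NFKBIA (116) and CXCL1 (115). Of 20 intestinal identity genes 8 had it (40.0%, against 63.0% of all genes), with 5 near (62.5%), 2 over and 1 differing. They were led by CA2, a carbonic anhydrase (151-fold), and the transcription factors KLF4 (140), CDX2 (96.2) and GATA6 (125). CDX2 counted as near with H3K4me1 ending 1 bp from its start in replicate 1 and 36 bp in replicate 2.

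Of 16 mesenchymal genes 11 had H3K4me3 (68.8%, close to the 63.0% of all genes), with 3 near (27.3%), 5 over (45.5%) and 3 differing. Of the 5, 3 have a listed start. Over all genes with H3K4me3, 68.4% were near and 15.4% over. ZEB1, a repressor of epithelial genes, had 109-fold, the integrin ITGA5 130-fold and ACTA2, smooth muscle actin, 114-fold, each with H3K4me1 near. S100A4 had 73.2-fold with H3K4me1 over the whole 2319 bp peak. Of 21 HOX genes 16 had H3K4me3 (76.2%), with 4 near, 6 over (37.5%) and 6 differing. As 13 of the 21 were placed by both ends, 3 of the 6 may be over a 3′ end. The list included HOXB8 (156-fold), HOXB9 (131), HOXB13 (111) and HOXA9 (108). Of 20 regulators of other lineages 9 had H3K4me3 (45.0%, beside 63.0% of all genes), with 1 near (11.1%), 4 over (44.4%) and 4 differing. Of the 4 over, 3 have a listed start. The 9 were led by FOXF1 (114-fold), PAX6 (129), PAX2 (106) and NKX6-1 (115).

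Of 22 genes for H3K4 methylation itself 20 had H3K4me3, with 12 near, 1 over, 5 differing and 2 alone. The 2 alone were KMT2C, which encodes MLL3, with a peak of 1040 bp and 45.2-fold, and KDM6A, the H3K27 demethylase of the MLL3 and MLL4 complexes, with 2752 bp and 82.4-fold. MEN1, encoding menin, had 153-fold, WDR5 151-fold, ING1, a reader of H3K4me3, 152-fold and PAXIP1 146-fold. KMT2C, KDM6A and KMT2D (101-fold, H3K4me1 near) were singled out after their values were seen, as the genes for these writers' complexes.

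H3K4me3 was also called at a start or gene end of some markers of other cell types. The blood markers were CD8A (79.9-fold), CD4 (32.2-fold), SPI1 (24.8-fold) and HBA1 (11.1-fold), of which 2 had H3K4me1 over and 2 differed between lists. Of the 4, only CD8A has a listed start. CD4, SPI1 and HBA1 were placed by both gene ends, so their peaks can lie at a 3′ end. COL1A1, also placed by both gene ends, had 29.8-fold, with H3K4me1 in differing positions. PDGFRA had 30.1-fold with H3K4me1 over its listed start. Of the neural markers, with 2 near, 2 over and 3 differing, MBP had 171-fold, TUBB3 147-fold, SLC17A7 96.6-fold and GAD1 89.5-fold. The other 3 were lower, at 20.2-fold for SNAP25, 16.4-fold for AQP4 and 9.30-fold for SYP. The SLC17A7 peak did not overlap the start used and lay wholly upstream of it. Whether that peak belongs to the SLC17A7 promoter was not tested. The TUBB3 peak overlapped its start, but its summit stood 1728 bp downstream. The median fold was 28.5 over the 4 blood markers with a peak, 30.0 over the 2 fibroblast and endothelial ones and 89.5 over the 7 neural ones, against 109 over all genes with H3K4me3.

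Distal H3K4me3 lay within H3K4me1. Of 9469 distal peaks, the summit was inside H3K4me1 of both lists at 8247 (87.1%, 86.4 to 87.8%), against 55.3% of all H3K4me3 peaks, and 7369 of them lay whole inside H3K4me1 in both. Another 452 were flanked on both sides, 58 on 1 side, 634 differed between lists and 78 had no H3K4me1. By library, 8751 were covered by replicate 1 and 8287 by replicate 2, 529 and 791 were flanked on both sides, and 86 and 175 had no H3K4me1. Just outside the 2 kb limit, at 2.0 to 2.5 kb from a gene end, 85.9% of 503 peaks were covered, and just inside it, at 1.5 to 2.0 kb, 87.6% of 573. The covered distal peaks were short and weak, with a median width of 560 bp and a median fold of 8.67, and 56.1% lay within the span of a protein-coding gene.

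The distal set was defined by gene ends, so starts within a gene's span remain in it. Of the 9469 peaks, 973 (10.3%) lay within 2000 bp of a listed start. That held for 474 of the 8247 covered peaks (5.75%) and for 292 of the 452 flanked on both sides (64.6%). Away from listed starts too, 7773 of 8496 were covered (91.5%) and 160 flanked on both sides (1.88%).

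The covered distal peaks of highest q included 4 of 10 near a listed start. These were the MTMR4 peak above, GRID2IP, a synaptic scaffold gene (chr7:6530187-6531810, fold 183), SLC16A3, the lactate transporter MCT4 (chr17:82227477-82232347, fold 97.2), and LDB1, a LIM-domain cofactor (chr10:102113239-102115674, fold 103). Among the other 6, the peak nearest to ACSF3 lay 39.7 kb from that gene (chr16:89051394-89054182, fold 153), and the peak nearest to ZNF704 lay 49.3 kb away (chr8:80577674-80579185, fold 138). Those in FSCN2 (fold 142), PISD (176), TSNARE1 (135) and IQANK1 (112) lay inside the genes. The IQANK1 peak (chr8:143737925-143741584) sat in H3K4me1 peaks of 8038 and 8045 bp, with summits 1033 and 1235 bp away. All 10 overlapped H3K27ac in both libraries and H3K4me3 in FOXD2 cells. Distal peaks without H3K4me1 were weaker, led by POM121C (66.9-fold), ERV3-1-ZNF117 (56.7), HFM1 (42.8), C4BPA (34.3) and LOC105377864 (43.4), as the nearest coding genes.

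Some genes held many covered distal peaks. The 4625 inside gene spans fell in 2629 genes, of which 1692 held 1 and 134 held 5 or more. CUX1, a homeobox gene, held 16 over a span of 468 kb, GSE1 held 15 over 507 kb, and CAMTA1 13 over 984 kb. SMAD3, a transducer of TGF-beta signals, held 13 over 130 kb, CUEDC1 13 over 94.2 kb and MYOF, myoferlin, 12 over 176 kb. Of distal H3K4me1 peaks, 11.6% in replicate 1 and 13.5% in replicate 2 overlapped H3K4me3. Most of these held 1 H3K4me3 summit, with 547 and 528 holding 2, and 126 and 122 holding 3 or more.

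Distal H3K4me1 with H3K4me3 carried MLL4 more often than distal H3K4me1 without it. Peaks of 1 library are not replicates, so these shares are given without a test. In H3K4me1 replicate 1, MLL4 overlapped 40.7% and 42.1% of the 7637 peaks with H3K4me3, against 3.20% and 4.03% of the 58221 without (MLL4 replicates 1 and 2). H3K27ac overlapped 79.7% and 77.6% with H3K4me3 and 29.3% and 23.9% without. Median widths were 2171 bp with H3K4me3 and 701 bp without. Among those 2000 to 4000 bp wide, MLL4 was at 50.0% and 53.6% with H3K4me3 and at 15.2% and 20.1% without. At 1000 to 2000 bp it was at 22.6% and 21.1%, against 4.46% and 6.38%. The difference was thus present within both width ranges. The peaks with H3K4me3 also had the higher median H3K4me1 fold there. It was 15.2 against 11.1 at 2000 to 4000 bp, and 10.9 against 7.82 at 1000 to 2000 bp. The part of H3K4me1 fold in the MLL4 shares was not tested. H3K4me1 replicate 2 gave 39.7% and 41.3% with H3K4me3, against 3.54% and 4.55% without, over all widths.

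Among distal H3K4me3 peaks, those covered by H3K4me1 overlapped H3K27ac at 79.8% and 78.5% and MLL4 at 44.1% and 46.5%. The 78 without H3K4me1 in either list overlapped H3K27ac at 14.1% and 5.13% and MLL4 at 2.56% and 1.28%. The 175 without replicate 2 alone overlapped H3K27ac at 22.3% and 15.4% and MLL4 at 1.71% and 0.571%. Median widths were 336 bp in the 78, 418 bp in the 175 and 560 bp in the covered peaks. The covered peaks were put into 4 bins of fold. The lowest, with a median width of 339 bp, overlapped H3K27ac at 76.2% and 74.4% and MLL4 at 30.6% and 33.5%. The highest had H3K27ac at 83.5% and 81.0% and MLL4 at 51.2% and 49.9%.

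The widest H3K4me3 peaks all held H3K4me1 in part. The widest, 13370 bp (chr22:46068866-46082235, fold 138), over LOC124905135, was covered by 80.2% and 68.2%. A peak of 9911 bp spanned ATP5F1D, a subunit of ATP synthase, and MIDN, with 74.5% and 69.0% covered. The 9697 bp peak within PLEC, which encodes the linker protein plectin, lay wholly inside H3K4me1 in both lists. Next were a 9208 bp peak over TRIOBP, which encodes an actin-bundling protein (86.8% and 85.0%), and a 9139 bp peak over STX10, a syntaxin, and IER2, an immediate-early gene (66.5% and 59.6%). In replicate 2 the summit was free of H3K4me1 at 4 of these 5 peaks, all except that within PLEC.

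The arrangement was similar in FOXD2 cells. Their H3K4me3 list held 22975 peaks and their H3K4me1 lists 114893 and 129887. Of H3K4me3 peaks, 53.04% were covered by both lists in FOXD2 cells and 55.3% in control cells, 31.6% and 28.5% were flanked on both sides, and 1.01% and 0.803% had no H3K4me1. The median summit distance was 624 and 666 bp in FOXD2 cells, against 615.5 and 608 bp in control cells. With 1 H3K4me3 library each, none of these differences has a test.

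Class membership by gene recurred to different degrees. H3K4me1 near but not over the start was found at 8862 genes in FOXD2 cells and 8610 in control cells, and 8009 were in both (90.4% of the FOXD2 and 93.0% of the control genes). H3K4me1 over the start was found at 2032 and 1940, with 1495 in both (73.6% and 77.1%). H3K4me3 alone was found at 175 and 147, with 83 in both (47.4% and 56.5%). Of the 8247 covered distal peaks of control cells, 95.9% were covered by both H3K4me1 lists of FOXD2 cells, while 66.9% overlapped an H3K4me3 peak there. That share was 31.2%, 55.1%, 82.2% and 99.1% in the 4 bins of fold, from the lowest to the highest. The weakest distal H3K4me3 peaks thus mostly lacked a called counterpart in the other library, although H3K4me1 was called at nearly all of the distal sites.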

How the data were processed

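Per the submitters' processing notes, MACS2 2.2.7.1, Bowtie2 2.3.4.1, cutadapt 3.4, bedtools and Picard were used, with the build hg38. The order of steps, the peak caller's settings and the background library of each list are not given in the sources used here. Each library has its own deposited narrowPeak list, without pooling. Column 7 of each deposited list holds the fold enrichment as a ratio, columns 8 and 9 hold −log10 of the p-value and q-value, and column 10 holds the summit's offset. The largest q was 0.0099. The lists give no read counts, so depth is unknown.

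Peaks outside chromosomes 1 to 22 and X were dropped, namely 35 H3K4me3 peaks and 15 and 12 H3K4me1 peaks. Overlap means at least 1 bp. Classes used a flank of 1000 bp, gene starts a window of 1000 bp, and distal peaks a distance of 2000 bp from gene ends. Gene names, ends, starts and promoter sequences came from RefSeq tables of GRCh38.p14, the same build. The 4162 genes placed by both gene ends include all of chromosome 8. All 288 entries of the 15 gene lists matched. Shares carry 95% Wilson intervals, and libraries were compared by exact permutation tests. Members and lists were chosen with earlier results of these data known. Named genes were those of highest −log10 q in each class or list. The values of 1 gene that this rule names are not reported here. The alternatives were a −log10 q of 5 or more, H3K4me1 lists of equal length, stitched peaks, other windows, distances and overlaps, and each H3K4me1 library left out. The steps were tested on simulated lists. Python 3.11.15, numpy 2.4.6, pandas 2.3.3, scipy 1.17.1 and matplotlib 3.10.9 were used.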

Additional observations from a re-analysis of the deposited data

How the results depend on the processing

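The counts of H3K4me3 peaks without H3K4me1, of covered summits and of covered distal peaks stayed within 1.5 times their reported value under each alternative except 1. H3K4me3 stayed above H3K4me1 in median width and in the share of peaks at gene starts under the alternatives run for these. The fold bins, gaps, gene lists, distal MLL4 shares and FOXD2 comparison were not rerun under alternatives. Leaving out 1 H3K4me1 library gave 212 to 504 peaks without H3K4me1, against 197 with both, where 504 is the count without replicate 1. It gave 162 to 552 gene starts with H3K4me3 alone, against 147, with 552 again without replicate 1, and 13702 to 16448 covered summits. The window of 500 bp gave 1653 gene starts with H3K4me3 alone and that of 2000 bp gave 63. These classes must hold in both lists, so leaving out 1 list can only keep or raise their counts. Why the rise differed between the 2 libraries was not tested. The windows act by construction.

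At a −log10 q of 5 or more the mean of the median summit distances was 633 bp, against 612 bp. As means of the 2 libraries, H3K27ac was then at 57.7% of starts with H3K4me3 alone, 91.9% with H3K4me1 near and 81.7% with H3K4me1 over the start. The reported means were 62.2%, 95.1% and 87.6%. MLL4 was then at 13.9%, 20.8% and 25.8% in the same order, against reported means of 20.1%, 33.3% and 39.1%. The stricter lists hold fewer peaks. The share of starts with a CpG ratio of 0.6 or more, with H3K4me1 over the start, was 55.0% to 66.9% with 1 library left out, with 66.9% without replicate 2. Away from listed starts 7773 distal peaks were covered, and 114 listed genes had H3K4me3 alone; these settings, and the libraries left out for summit distance and CpG, were chosen after seeing the data.

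No paired analysis was possible because the H3K4me3 library carries no replicate number, so the marks share fewer than 2 numbers. With 1 H3K4me3 library, no spread of H3K4me3 is known, and without depth the lists set no limit on what was missed.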
